A study of Mus musculus with 4 samples.

Results

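Dividing crypt epithelial cells were examined in single-cell RNA sequencing of the distal jejunum. A cell was counted as one when at most 10% of its UMIs (unique molecular identifiers, 1 per captured RNA molecule) lay on mitochondrial genes, when it held at least 1 UMI of the epithelial gene Epcam, at least 1 UMI in 4 or more of the 6 division genes Mki67, Top2a, Birc5, Ube2c, Cdc20 and Cdca3, and no UMI of the leukocyte gene Ptprc. This rule found 193 cells among 22679 barcodes (0.851%), or 7.27% of the 2653 epithelial cells that passed the other criteria. The cells were thus chosen by their UMIs of these genes, whose levels are given below as a description only. All 6 division genes were detected in 127 of the cells, 5 genes in 57 and 4 genes in 9, and a further 13 epithelial cells held 3 and lay just outside. Cells with 4 had median depths of 48352, 57054, 105474 and 35753.5 UMIs in the 4 mice and cells with 3 had 98688.5, 28320, 64228 and 28996 UMIs.

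The 4 libraries came from 4 mice, each 1 library, taken 18.5 h after ischemia and reperfusion (I/R) of the small intestine, in which blood flow is stopped and then restored. The 2 Control mice carried Foxc1fl/fl;Foxc2fl/fl and the 2 EC-Foxc-DKO mice carried Cdh5-CreERT2;Foxc1fl/fl;Foxc2fl/fl, so that the floxed alleles were common to both groups. By the study's methods, adult males received tamoxifen at 7 to 8 weeks of age and were operated on 12 days later. The Cdh5 promoter drives Cre in endothelial cells, so that the deletion is aimed at the vessels and not at the epithelium described here. In the dividing cells, Cre had 0 UMIs in all 4 mice, Foxc2 had 0 UMIs in all 4 and Foxc1 had 1 UMI in EC-Foxc-DKO replicate 2 and 0 in the other mice, so the genotype could not be checked in these cells.

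Crypts are the pits between the villi in which the intestinal epithelium is renewed. Stem cells at their base give rise to transit-amplifying cells, which divide several times and then take either the absorptive fate of the enterocyte or a secretory fate (goblet, Paneth, enteroendocrine or tuft cell), a choice in which Notch signalling holds back the secretory program. A dividing cell copies its DNA in S phase with the MCM helicase and the clamp Pcna, and separates the copies in G2/M with the spindle and kinetochore proteins.

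Genes of these phases are known to carry different promoter elements, the E2F site in many S-phase genes and the CHR element, often next to CCAAT boxes, in many G2/M genes. The promoter windows of a G2/M gene used in the rule (Ube2c), of the G2/M gene with the most negative fold change of its list (Cenpf) and of a pair of S-phase genes (Mcm3, which loads onto origins as part of the helicase, and Dtl, which directs replication factors to degradation) are shown because the cells were compared along this axis. They are RefSeq sequences of GRCm38.p6, written 5′ to 3′ on the gene's strand from 250 bases before to 30 bases after the start, and capitals mark matches to 3 motifs. The CHR was read as TTTGAA on either strand and the CCAAT box as CCAAT on either strand. The E2F site was read on either strand as one of 4 spellings, which are TTTGGCGC, TTTCCCGC, TTTCGCGC and TTTGCCGC.
Ube2c (chr2:164769679-164769958, + strand): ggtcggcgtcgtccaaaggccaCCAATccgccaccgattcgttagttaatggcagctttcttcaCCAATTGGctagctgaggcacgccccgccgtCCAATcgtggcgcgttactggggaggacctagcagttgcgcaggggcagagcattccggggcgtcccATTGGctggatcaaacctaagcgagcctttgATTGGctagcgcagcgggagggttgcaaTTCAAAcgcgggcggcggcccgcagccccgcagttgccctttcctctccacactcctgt
Cenpf (chr1:189688057-189688336, - strand): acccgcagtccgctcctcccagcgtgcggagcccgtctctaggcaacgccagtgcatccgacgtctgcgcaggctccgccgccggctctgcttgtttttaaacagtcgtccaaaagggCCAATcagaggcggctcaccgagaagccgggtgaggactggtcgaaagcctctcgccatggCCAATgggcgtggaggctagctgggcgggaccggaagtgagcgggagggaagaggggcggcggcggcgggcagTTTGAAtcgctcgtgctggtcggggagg
Mcm3 (chr1:20820283-20820562, - strand): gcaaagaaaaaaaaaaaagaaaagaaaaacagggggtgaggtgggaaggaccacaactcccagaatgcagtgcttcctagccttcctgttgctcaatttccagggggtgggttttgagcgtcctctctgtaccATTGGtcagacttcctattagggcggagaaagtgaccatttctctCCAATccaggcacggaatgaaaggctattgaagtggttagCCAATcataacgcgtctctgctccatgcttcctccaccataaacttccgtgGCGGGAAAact
Dtl (chr1:191575515-191575794, - strand): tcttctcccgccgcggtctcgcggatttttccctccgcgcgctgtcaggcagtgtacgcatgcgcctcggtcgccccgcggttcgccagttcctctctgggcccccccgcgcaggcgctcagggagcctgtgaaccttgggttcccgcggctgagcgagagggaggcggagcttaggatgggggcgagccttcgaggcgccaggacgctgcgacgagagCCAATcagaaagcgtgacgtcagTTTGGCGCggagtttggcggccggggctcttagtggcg
Ube2c and Cenpf each held 1 CHR match and no E2F match in these stretches, and Mcm3 and Dtl each held 1 E2F match and no CHR match. In the full windows of 300 bases, CHR letters were present for 66.7% of the 24 G2/M-list genes found in the RefSeq table and for 20.8% of the 24 S-list genes found, beside 20.2% of all 27025 genes. E2F letters were present for 4.17% of the G2/M list, 41.7% of the S list and 2.60% of all genes, and CCAAT letters for 75.0% of each list and 41.1% of all genes. In the Ube2c window a pair of CCAAT matches on opposite strands overlap. A match describes the sequence only.

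The dividing cells were unevenly spread over the mice. Control contributed 22 cells (replicate 1) and 12 cells (replicate 2) and EC-Foxc-DKO contributed 35 and 124, so that 64.2% came from a single mouse. Of all epithelial cells they made up 2.10% (95% exact Clopper-Pearson interval 1.32 to 3.17) and 10.8% (5.71 to 18.1) in Control, and 4.65% (3.26 to 6.41) and 16.7% (14.1 to 19.6) in EC-Foxc-DKO. The groups overlapped, since Control replicate 2 lay above EC-Foxc-DKO replicate 1, and the means of 6.46% ± 6.16 (SD, n = 2) and 10.7% ± 8.51 (SD, n = 2) differed by less than this spread. The shares depend on depth: with every epithelial cell thinned to 5000 UMIs before the rule was applied, and shallower cells left out, 99 cells met it in place of 193 and the shares were 1.77%, 7.06%, 3.20% and 8.02%, in the same order of mice and again with overlap. The intervals cover counting error only, and with 2 mice a group the lowest two-sided p of an exact permutation test is 0.333, so none was run on values of this kind.

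**Figure D1:**
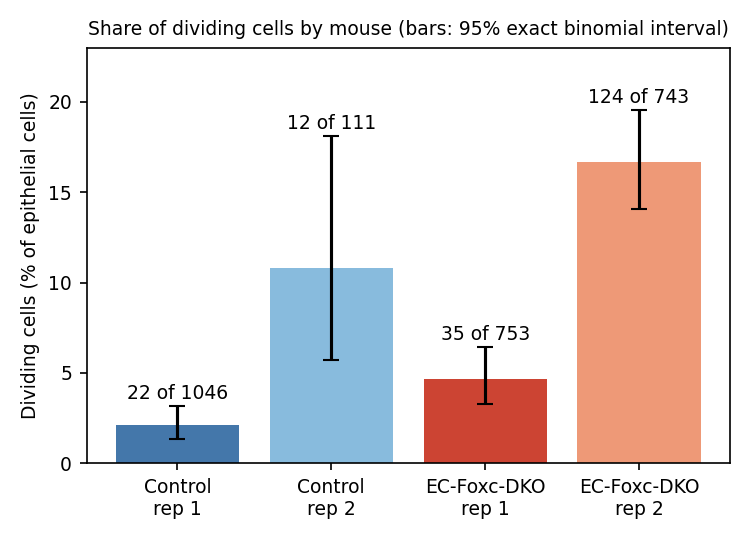
Dividing cells as a percentage of the epithelial cells of each mouse, with bars for the share and whiskers for its 95% exact binomial interval. Shares ran from 2.10% in Control replicate 1 to 16.7% in EC-Foxc-DKO replicate 2, and the 2 groups overlapped.

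The dividing cells held more UMIs than the epithelial cells with none of the division genes, called nondividing below. A rule that asks for UMIs of several genes favours deep cells, and a class with none favours shallow ones, so the choice of cells also sets the classes apart by depth and the difference is a description only. The median depth was 80312.5 and 38077 UMIs per cell in Control, then 61428 and 43399.5 in EC-Foxc-DKO, beside 21084, 14925, 18073 and 21411 UMIs in nondividing cells. Summed over the dividing cells, the 4 mice gave 1863028, 441248, 2447395 and 5500413 UMIs, and Control replicate 2 is thus the least precise. Levels are given as CPM, UMIs of a gene scaled to a common total of each sum, and 4 values in a row follow the order Control replicate 1, Control replicate 2, EC-Foxc-DKO replicate 1, EC-Foxc-DKO replicate 2. These sums cannot tell fewer expressing cells from less RNA per cell.

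The label markers were found in these cells, and 5 of the 6 belong to the rule. Epcam was at 2193, 2280, 2146 and 1894 CPM, and Mki67, the classic proliferation antigen, at 286, 265, 180 and 156 CPM. Olfm4, a marker of crypt base cells that the rule did not use, was at 126, 1802, 528 and 123 CPM and was detected in 68.2%, 66.7%, 71.4% and 75.8% of the cells, beside 0.351, 77.4, 0.793 and 0.889 CPM in nondividing epithelial cells and 0, 0.0588, 0.00457 and 0 UMIs per B cell. The groups overlapped, with Control replicate 2 far above the other mice. Lgr5, the receptor that marks active stem cells, was low at 2.15, 20.4, 11.4 and 1.09 CPM, with UMIs in 3, 3, 8 and 5 cells. The study's own crypt list of 10 genes, which was chosen on these samples, summed to 8708, 7424, 9016 and 10151 CPM, led by Krt19 (2569, 1394, 2759 and 2357 CPM), a keratin of the simple epithelium, with 5 positive and 5 negative fold changes between genotypes.

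Markers of T cells, endothelium, mesenchyme and myeloid cells were scarce. Of the T cell list of 10 genes the sums were 1.07, 6.80, 6.95 and 4.55 CPM, with Gzma its most abundant gene. The endothelial list of 8 genes summed to 0, 2.27, 6.95 and 2.00 CPM, of which 8, 7, 6 and 3 genes were at 0 and Esam was the most abundant, and the mesenchymal list of 10 summed to 1.61, 6.80, 2.04 and 0.727 CPM, with Pdgfrb highest. The myeloid list reached 8.59, 6.80, 19.2 and 23.8 CPM, led by Cd68. B cell genes reached 321, 92.9, 239 and 278 CPM, mostly Cd74, an MHC class II chaperone that epithelial cells also make and that was at 765, 317, 563 and 557 CPM in nondividing epithelial cells. The plasma cell list summed to 184, 125, 180 and 223 CPM, led by Xbp1, beside 701, 1488, 210 and 700 CPM in nondividing epithelial cells. The germinal center B cell list summed to 67.6, 58.9, 80.1 and 64.7 CPM, led by Cd38, beside 51.5, 118, 57.9 and 49.0 CPM. At least 3 immune genes that are otherwise rare in these cells were present in 0, 0, 5 and 1 of the dividing cells, and 1, 0, 15 and 14 further cells met every criterion but held a Ptprc UMI and were left out. Mixed droplets were addressed by leaving out these cells or the cells with the highest doublet scores, 13 of the dividing cells, and what this moved is given beside the results concerned.

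The most abundant genes outside the mitochondrial and ribosomal protein genes were Reg3b, Eef1a1, Tpt1, Actb, Ptma, Lgals2, Lgals4, Hsp90ab1, Fau and Gm42418. Several of these were far higher in dividing than in nondividing epithelial cells. Ptma, a chromatin protein of growing cells, was at 4092, 4938, 4301 and 3866 CPM in dividing cells and at 92.0, 610, 210 and 193 CPM in nondividing ones. Hsp90ab1, a chaperone, was at 3833, 3608, 3830 and 4032 CPM against 320, 861, 506 and 763 CPM, and the lectin Lgals2 at 4583, 4521, 4365 and 3645 CPM against 587, 1298, 955 and 1102 CPM. Each of these genes was higher in dividing cells in all 4 mice. The classes were set apart by division genes, and these differences are given as a description with no test.

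Genes for growth were higher in dividing than in nondividing cells too. The list of 12 genes for ribosome biogenesis and growth summed to 4991, 4845, 4821 and 5682 CPM in dividing cells and to 497, 845, 562 and 599 CPM in nondividing ones, led by the nucleolar proteins Npm1 (1543, 1840, 1424 and 1831 CPM) and Ncl (1068, 1058, 1064 and 1235 CPM). Genes for polyamine and one-carbon synthesis, which supply building blocks for DNA and growth, summed to 911, 718, 933 and 1136 CPM against 208, 243, 203 and 247 CPM, with Odc1 highest at 342, 165, 322 and 449 CPM. Targets of Wnt signalling, the signal that sustains crypt division, summed to 325, 487, 454 and 423 CPM against 32.7, 105, 42.6 and 55.4 CPM, led by Ccnd1 (191, 179, 224 and 246 CPM), the cyclin that starts the cycle, and Sox9 (32.7, 74.8, 56.0 and 28.7 CPM), a transcription factor of crypt cells. Gm42418, a gene that overlaps ribosomal RNA, was at 4573, 5992, 2829 and 802 CPM in dividing cells and 16281, 14805, 11822 and 1874 CPM in nondividing cells, with both EC-Foxc-DKO mice below both Control mice in each class, and its part in other results was not tested.

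Enterocyte genes were lower in dividing cells than in nondividing ones in every mouse but not absent. The 12 genes of the list summed to 21087, 2114, 11629 and 8222 CPM in dividing cells and to 126482, 76518, 126327 and 119086 CPM in nondividing cells. Per cell this was 1786, 77.8, 813 and 365 UMIs, whereas nondividing B cells of the same mice, which should lack these genes and show free RNA, held 15.9, 57.6, 9.57 and 8.12 UMIs at median depths of 3289, 3554, 3208 and 3233.5 UMIs. In Control replicate 2 the level was thus close to that of free RNA on a per-cell basis. Fabp1, a fatty acid binding protein, was at 4509, 535, 3240 and 1838 CPM and its relative Fabp2 at 5190, 816, 1923 and 1757 CPM.

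A lineage class was also read from single cells, as at least 4 genes of a list with a UMI after each cell was thinned to 10000 UMIs, which 191 dividing cells allowed. The enterocyte list reached this in 175 of 191 cells (91.6%), and in 192 of 193 (99.5%) before thinning. Since nondividing B cells reached it in 97.4%, 35.3%, 82.6% and 20.6% of cells before thinning, the count alone is not read as commitment. The goblet list reached it in 2 of 22, 1 of 10, 2 of 35 and 11 of 124 cells (9.09%, 10.0%, 5.71% and 8.87%), 16 of 191 in all (8.38%), and in 29.5% of the cells before thinning, beside 1.30%, 0%, 1.71% and 0% of B cells before thinning and 4.84%, 1.96%, 9.49% and 5.15% of nondividing epithelial cells after it. Goblet genes were thus present in a minority of dividing cells in each mouse at a share above that of B cells, which are shallower, and 12 of the 16 goblet-bearing cells also reached the enterocyte count.

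Secretory genes other than those of goblet cells were rare. The Paneth list, genes for antimicrobial granules, was reached in 1, 1, 0 and 4 cells, and 4 of these 6 cells were also goblet-bearing. A count of 0 of 35 cells allows a share of up to 10.0% by the 95% exact interval, and 1 of the 35 cells (2.86%) reached the Paneth list before thinning. The enteroendocrine list was reached in 0, 0, 0 and 1 cell and the tuft list in 0, 0, 1 and 2 cells. Without the highest doublet scores no cell reached the tuft list after thinning, while 0.885% of the cells of EC-Foxc-DKO replicate 2 did before it. Sct, the hormone secretin, was at 16.1, 95.2, 9.40 and 38.4 CPM in dividing cells and at 433, 2438, 1463 and 1023 CPM in nondividing ones. Among genes of lineage choice, Klf5 (541, 422, 435 and 579 CPM) and Hnf4a (226, 179, 196 and 214 CPM), transcription factors of the crypt and of the absorptive lineage, had the highest levels. Hes1, the Notch target that represses the secretory program, was at 77.8, 122, 96.0 and 74.0 CPM in dividing cells and 10.3, 21.3, 15.5 and 12.9 CPM in nondividing cells, with no order by genotype.

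Goblet UMIs were concentrated in few cells. The top cell held 82.6%, 98.0%, 89.2% and 15.7% of the goblet-list UMIs of its mouse, and in the most goblet-rich cell of each mouse the list took 18.1%, 19.3%, 1.32% and 9.74% of all UMIs, against medians of 0.00404%, 0.00849%, 0.00881% and 0.00748% per cell. Zg16, a mucus protein, was at 3143, 6110, 425 and 746 CPM, and 99.6%, 99.8%, 95.1% and 27.3% of its UMIs lay in 1 cell of each mouse. Agr2, an endoplasmic reticulum protein needed for mucin folding, was at 1941, 2155, 98.1 and 1725 CPM. In 3 of the 4 mice the goblet level thus rests mostly on 1 cell, as the plot of goblet against enterocyte genes per cell shows, whereas in EC-Foxc-DKO replicate 2 it is spread over more cells.

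**Figure D2:**
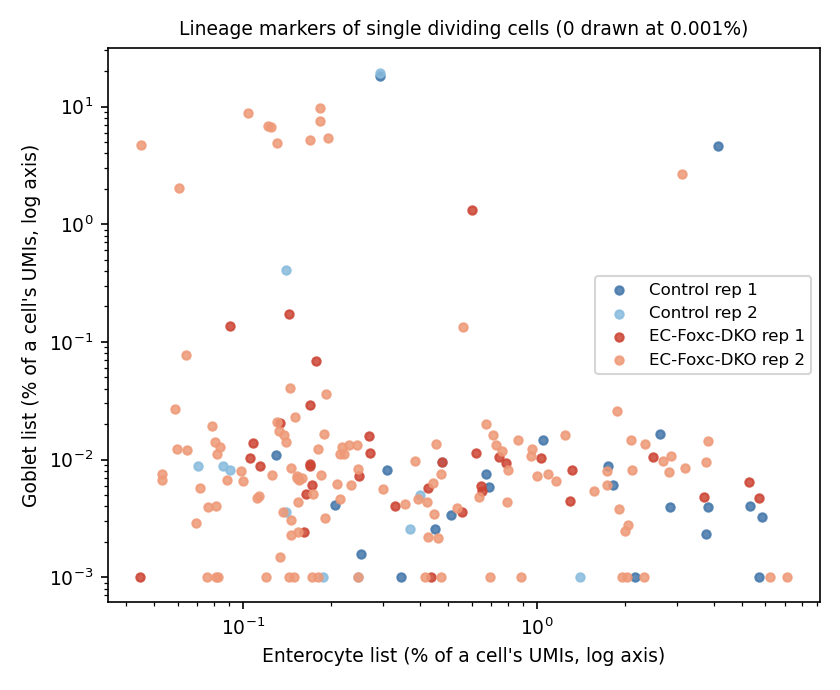
Each point is 1 dividing cell, with the enterocyte list on the x axis and the goblet list on the y axis as percent of the cell's UMIs, both on log axes, coloured by mouse, and with 0 drawn at 0.001%. All 193 cells are drawn, unthinned, and most lie near the bottom of the goblet axis, while 9 have over 5% of their UMIs on goblet genes, the highest at 19.3%.

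The dividing cells of both EC-Foxc-DKO mice leaned less to G2/M than those of both Control mice. For each cell the G2/M share was taken as its UMIs on a list of 30 G2/M genes over its UMIs on that list and on a list of 30 S genes, and the 191 cells with at least 20 such UMIs were read. The genes of the rule are in neither list, but they too are genes of late cycle phases, so the rule favours G2/M over S cells in every mouse and the values hold for cells chosen in this way. Its median over cells was 0.783 and 0.830 in Control (22 and 11 cells), but 0.618 and 0.663 in EC-Foxc-DKO (35 and 123 cells). Both EC-Foxc-DKO medians lay below both Control medians, with means of 0.641 ± 0.0316 (SD, n = 2) against 0.806 ± 0.0336 (SD, n = 2), a difference larger than the spread between mice. After thinning each cell to 10000 UMIs the medians were 0.80 and 0.775 against 0.611 and 0.654, again without overlap. No permutation of 4 mice can pass 0.05 here.

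The range of single cells overlapped widely between the groups. Shares spanned 0.333 to 0.894 and 0.125 to 0.920 in Control, 0.152 to 0.876 and 0.181 to 0.919 in EC-Foxc-DKO. Cells with over 0.667 of G2/M UMIs numbered 15 of 22 and 10 of 11 in Control (68.2% and 90.9%), 15 of 35 and 59 of 123 in EC-Foxc-DKO (42.9% and 48.0%), and 99 of 191 in all. Cells under 0.333, the S-leaning range, numbered 0, 1, 4 and 4. These are ranges and not types, since 48 cells lay within 0.05 of a limit. Goblet-bearing cells had a higher median, 0.828 against 0.662 in the others, and without them the medians were 0.763 and 0.829 against 0.605 and 0.653, which did not overlap either.

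**Figure D3:**
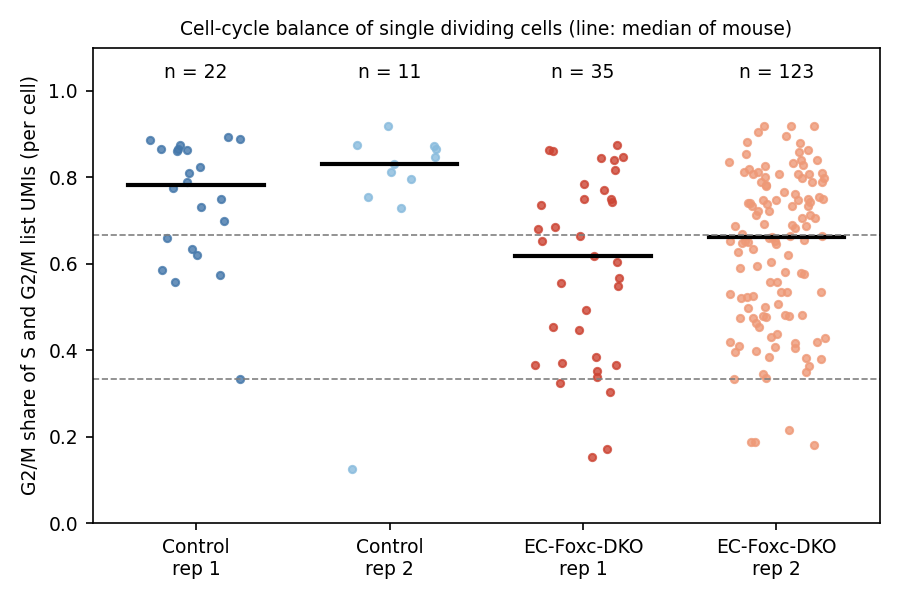
Each point is 1 dividing cell, and the y axis is its G2/M share of the S and G2/M list UMIs from 0 to 1, by mouse, with the horizontal line at the mouse's median and dashed lines at 0.333 and 0.667. The medians of the EC-Foxc-DKO mice, 0.618 and 0.663, lie below those of the Control mice, 0.783 and 0.830, while single cells overlap.

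The list sums use UMIs of the same genes as the G2/M share and are not a separate result. The S list summed to 877 and 1142 CPM in Control against 1353 and 1404 CPM in EC-Foxc-DKO, and the G2/M list to 2626 and 2901 CPM against 1818 and 2112 CPM. B cells of the same mice held 1.82, 2.29, 1.76 and 2.71 UMIs of the S list and 0.818, 1.06, 0.818 and 0.941 UMIs of the G2/M list per cell, against 74.2, 42.0, 94.6 and 62.3 and 222, 107, 127 and 93.7 in dividing cells. Dividing leukocytes, with 2, 1, 10 and 11 cells, were too few for a comparison.

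The sums of the dividing cells were compared between genotypes with edgeR's quasi-likelihood test on 9282 genes. No gene passed an adjusted p of 0.05 (0 of 9282, 0% of the genes tested), the lowest adjusted p being 0.934, and 245 genes had an unadjusted p under 0.05 (2.64%), 109 higher (1.17%) and 136 lower (1.47%) in EC-Foxc-DKO. DESeq2 on the same sums called 5 genes, 1 higher and 4 lower, and edgeR without Control replicate 1, Control replicate 2, EC-Foxc-DKO replicate 1 or EC-Foxc-DKO replicate 2 called 16, 29, 45 or 44. With 2 mice a group, a value that did not pass does not show that the genotypes were alike.

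Within that test the 2 cycle lists lay on opposite sides of 0, as counts without a list test. These are the genes already used for the G2/M share, so the counts are not independent of it. Of the 30 S genes 27 had a positive log2 fold change (90.0%), with a median of 0.47, and of the 30 G2/M genes 29 had a negative one (96.7%), with a median of -0.46, whereas 49.7% of all genes tested were positive, 50.3% were negative and their median was -0.0022. The levels of both EC-Foxc-DKO mice lay above those of both Control mice for 15 S genes and for no G2/M gene, and below them for 18 G2/M genes and no S gene, beside 14.5% and 14.3% of all genes. None of the 60 genes passed edgeR's adjusted threshold. At an unadjusted p under 0.05, 6 S genes were higher and 3 G2/M genes lower, beside 1.17% of all genes higher and 1.47% lower. Cdc6 is in each of the S counts and had to be positive, since it passed the filter on low counts only through the EC-Foxc-DKO mice. The exceptions in direction were Tyms, Cdc45 and Blm among S genes and Gtse1 among G2/M genes.

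**Figure D4:**
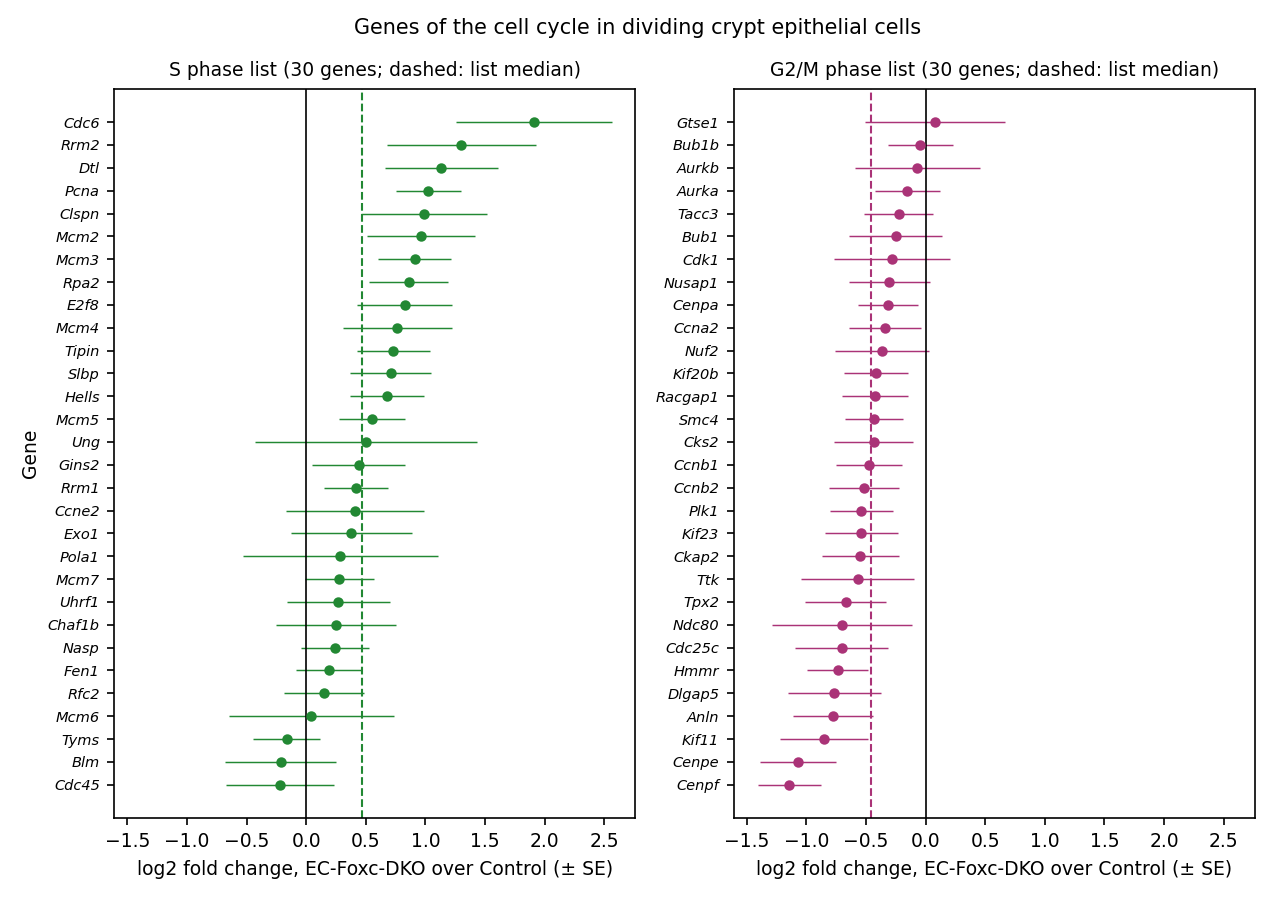
Log2 fold change of EC-Foxc-DKO over Control with its standard error for the 30 genes of the S list (left) and the 30 genes of the G2/M list (right), with dashed lines at the list medians of 0.47 and -0.46. Points of the S list sit mostly right of 0 and those of the G2/M list mostly left of it, and none passed edgeR's adjusted threshold.

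Pcna, the sliding clamp of DNA replication, was at 54.7 and 63.5 CPM in Control against 119 and 121 CPM in EC-Foxc-DKO, with UMIs in 22, 5, 33 and 109 cells. Both EC-Foxc-DKO values lay above both Control values, at a log2 fold change of 1.02 ± 0.27 (SE) and an unadjusted p of 0.00565, but edgeR's adjusted p was 1.00. Mcm3 was at 27.4 and 38.5 against 59.2 and 59.8 CPM (0.91 ± 0.30 SE), and Cdc6, which loads the helicase, at 2.15 and 4.53 against 11.4 and 9.45 CPM (1.91 ± 0.65 SE). Pcna spans 132249162 to 132253314 on chromosome 2 of GRCm38, Mcm3 spans 20802968 to 20820312 on chromosome 1, and both are protein-coding genes on the minus strand.

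Cenpf, a kinetochore protein on chromosome 1 (189640606 to 189688086, minus strand), was at 177 and 172 CPM in Control against 87.4 and 72.2 CPM in EC-Foxc-DKO. The groups did not overlap, at a log2 fold change of -1.14 ± 0.27 (SE) and an unadjusted p of 0.00281. Cenpe, a kinesin of chromosome alignment, was at 99.8 and 159 against 61.7 and 61.1 CPM, and Hmmr, which helps build the spindle, at 122 and 118 against 65.4 and 80.5 CPM. The most abundant G2/M genes differed less, Cks2 being at 306, 517, 264 and 354 CPM and Cenpa, the centromeric histone, at 226, 249, 172 and 215 CPM. Replication-dependent histone mRNAs lack poly(A) tails and are captured poorly by this chemistry. Their list of 10 genes summed to 186, 186, 333 and 105 CPM, so that the groups overlapped, and of the 8 genes tested 6 were positive and 2 negative, of which Hist1h2ap passed the filter only through the EC-Foxc-DKO mice and thus had to be positive. Within the list Hist1h1b, a linker histone, was at 4.29 and 6.80 against 67.4 and 17.3 CPM, with 47.3% of the EC-Foxc-DKO replicate 1 UMIs in 1 cell. Of the cyclins and their inhibitors, Ccnd2, which drives entry into the cycle, was highest at 377, 526, 374 and 437 CPM, and Cdkn1b, an inhibitor of the cycle, was at 45.6 and 58.9 against 29.4 and 22.7 CPM.

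The genes of lowest p in each direction are given as values that did not pass in edgeR. Of these genes DESeq2 called Zg16, Ramp1, Fcgbp and Ly6g, at DESeq2 adjusted p of 1.77e-08, 0.00557, 0.00878 and 0.00878. Lower in EC-Foxc-DKO were Zg16, Sectm1b, Ramp1, Aspm and Fcgbp. Aspm, a spindle pole protein, was at 51.5 and 58.9 CPM against 17.2 and 19.5 CPM (log2 fold change -1.58 ± 0.29 SE, edgeR adjusted p 0.934) and was spread over 19, 9, 22 and 61 cells. Zg16 and Fcgbp are both mucus proteins. Of the 10 goblet genes, all tested, 9 were negative with a median of -1.82 beside 50.3% of all genes negative, 7 had an unadjusted p under 0.05 beside 1.47%, and 8 were below both Control mice in both EC-Foxc-DKO mice beside 14.3%, but as shown above most of their UMIs lay in 1 cell in 3 of the mice, and Fer1l6 passed the filter only through the Control mice. Of the 10 Paneth genes 4 were tested, all 4 negative and 3 at an unadjusted p under 0.05 (Itln1, Defa24 and Lyz1). These too lay in few cells, since 1 cell of each Control mouse held 98.7% and 100% of the Itln1 UMIs, 100% and 97.4% of those of Defa24 and 100% of those of Lyz1. In edgeR no gene of either list passed the adjusted threshold, whereas DESeq2 called Zg16 and Fcgbp as given above. Sectm1b (32.2, 9.07, 1.63 and 2.18 CPM) and Ramp1 (15.0, 40.8, 1.63 and 1.64 CPM) were low, and 1 cell held 85.7% and 100% of the Ramp1 UMIs of the Control mice.

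Higher in EC-Foxc-DKO were Akr1e1, Wfdc2, Ly6g, Pttg1 and Rgs13. Pttg1, the securin that holds sister chromatids together until anaphase, was at 36.0 and 31.7 CPM in Control against 80.1 and 99.1 CPM in EC-Foxc-DKO, with UMIs in 21, 5, 32 and 116 cells (log2 fold change 1.37 ± 0.27 SE, edgeR adjusted p 0.934). It is a mitotic gene on the opposite side from most of the G2/M list. Akr1e1, an aldo-keto reductase, had 3 and 0 UMIs in Control against 35 and 109 in EC-Foxc-DKO, a ratio of 13.9 (95% counting interval 4.67 to 68.3). Wfdc2, a protease inhibitor of mucosal surfaces, had 2 and 1 against 66 and 83 UMIs, a ratio of 14.4 (4.83 to 70.6), with 71.2% of the EC-Foxc-DKO replicate 1 UMIs in 1 cell.

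Ly6g, a surface antigen known from neutrophils, had 3 and 0 against 48 and 458 UMIs, with a ratio of 48.9 (16.6 to 238). EC-Foxc-DKO replicate 2 carried most of this, and without it the log2 fold change was 3.96 in place of 5.29. Replicate 1 also lay above both Control mice, the levels being 1.61, 0, 19.6 and 83.3 CPM, whereas in nondividing cells they were 2.71, 0.610, 0.969 and 109 CPM and replicate 1 did not. Rgs13, a regulator of G protein signalling known from tuft and germinal center B cells, had 0 UMIs in both Control mice but 71 UMIs in 2 cells and 55 UMIs in 4 cells of EC-Foxc-DKO, at least 12.2-fold higher when the Control sum is set to 3 UMIs, and 98.6% and 87.3% of the UMIs of the EC-Foxc-DKO mice lay in 1 cell each. Of the tuft list, 6 of 10 genes passed the filter on low counts, all 6 positive and at an unadjusted p under 0.05, beside 1.17% of all genes, but all 6 passed only through the EC-Foxc-DKO mice and thus had to be positive, so nothing is read from this count. The tuft list summed to 4.83, 4.53, 164 and 52.9 CPM, and only 3 cells in all reached 4 tuft genes after thinning. Akr1e1, Wfdc2, Ly6g and Rgs13 likewise passed the filter only through the EC-Foxc-DKO mice, as Sectm1b and Ramp1 did through the Control mice. Counting intervals here cover counting error only, not the spread between mice.

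Antimicrobial genes were high in EC-Foxc-DKO replicate 2. Reg3b, a secreted lectin that kills bacteria (chromosome 6, 78370657 to 78373466), was at 2345 and 1607 CPM in Control against 4032 and 18594 CPM in EC-Foxc-DKO, with UMIs in 22, 10, 34 and 124 cells. The groups did not overlap, but replicate 2 carried most of the difference: the log2 fold change of 2.47 ± 0.64 (SE, edgeR adjusted p 1.00) was 1.07 without it. Its levels in nondividing cells were higher still, at 12123, 15939, 15153 and 41402 CPM, again highest in that mouse, and B cells held 0.792, 0.529, 0.459 and 1.15 UMIs per cell against 199, 59.1, 282 and 825 in dividing cells. Reg3g, its relative, was at 1416, 1675, 2076 and 7335 CPM, and Lcn2, which binds bacterial siderophores, at 3.76, 4.53, 15.1 and 358 CPM, with a log2 fold change of 5.52 that was 1.95 without replicate 2.

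**Figure D5:**
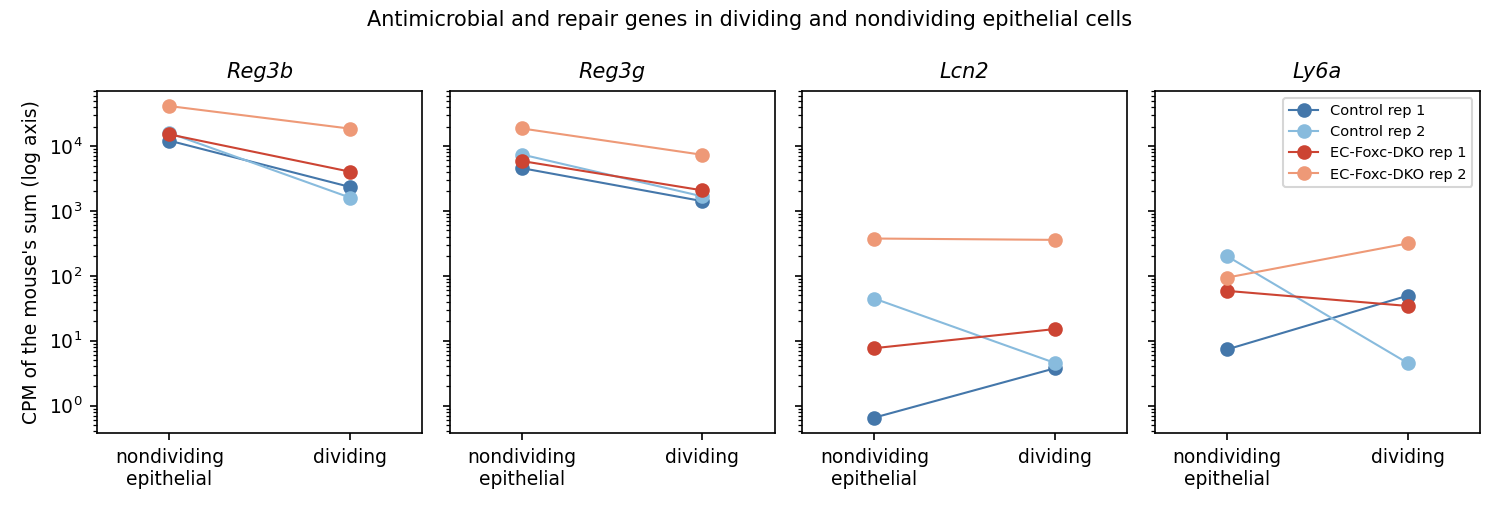
CPM on a log axis of Reg3b, Reg3g, Lcn2 and Ly6a in nondividing epithelial cells (left point) and in dividing cells (right point) of the same mouse, joined by a line. EC-Foxc-DKO replicate 2 is highest in dividing cells for each of the 4 genes, Reg3b at 18594 CPM, while Ly6a is highest in Control replicate 2 among nondividing cells.

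Of the 12 antimicrobial genes 8 passed the filter, 5 positive and 3 negative, none past the adjusted threshold. Lcn2 and Duox2, with 7 and 2 and with 3 and 0 UMIs in Control, passed only through the EC-Foxc-DKO mice and thus had to be positive. The other positive genes, Reg3b, Reg3g and Lypd8, had an unadjusted p under 0.05, beside 1.17% of all genes higher at that p. Of the fetal-like repair genes, known from regenerating epithelium, 6 of 12 were tested and all 6 were positive, beside 49.7% of all genes. Of these, Anxa1 passed the filter only through the EC-Foxc-DKO mice. Both EC-Foxc-DKO mice lay above both Control mice for 1 of the 6, beside 14.5% of all genes. Ly6a of this list was at 49.4, 4.53, 34.3 and 316 CPM, so that its groups overlapped. Control replicate 2 was low for this list, at 2743, 367, 2699 and 2793 CPM in all, and for the hypoxia and glycolysis list, at 2312, 963, 2105 and 2341 CPM. The median UMIs per cell were lowest in that mouse too, and the part of its depth in these values was not tested.

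The stress and immediate early list, genes that respond within minutes to injury or tissue digestion, summed to 1514, 1534, 1722 and 1477 CPM in dividing cells, below 3448, 2673, 3041 and 2120 CPM in nondividing ones. The interferon response list summed to 120, 109, 90.3 and 90.4 CPM, led by Irf1 (22.0, 47.6, 31.5 and 12.2 CPM), and both EC-Foxc-DKO sums lay below both Control sums, although 2 of its 5 tested genes were positive. Of the other 3, Oasl2 passed the filter only through the Control mice and thus had to be negative. The MHC class II list summed to 373, 102, 258 and 305 CPM, and its groups overlapped as did those of the stress list. The 10 genes of the stem cell panel summed to 797, 3443, 1576 and 673 CPM, with 2 positive and 8 negative fold changes, and the groups overlapped.

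Whether the genotypes differed otherwise in dividing than in nondividing epithelial cells was asked with an interaction term, each mouse being its own block. Of 11338 genes 4 passed (0.0353%), all with a lower change in dividing cells: Retnlb, Spink4, Agr2 and Acta1. Without the highest doublet scores 1 gene passed. In all, 264 genes had an unadjusted p under 0.05 (2.33%). Retnlb, an antibacterial peptide of goblet cells (chromosome 16, 48816856 to 48818892), was at 206 and 2803 CPM in Control and 9.81 and 169 CPM in EC-Foxc-DKO dividing cells, but at 0.552 and 5.49 against 17.7 and 201 CPM in nondividing cells, an interaction of -9.31 ± 0.52 (SE, log2, edgeR adjusted p 6.29e-06).

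All 383 and 1237 Retnlb UMIs of the Control mice lay in 1 dividing cell each. Spink4, a goblet peptide, was at 944 and 5575 against 219 and 479 CPM in dividing cells and at 35.3 and 142 against 395 and 488 CPM in nondividing ones (-5.51 ± 0.50 SE, edgeR adjusted p 0.000653). Without the highest doublet scores its edgeR adjusted p was 0.163, while the interaction was larger at -7.37. In each mouse 1 dividing cell held 57.0%, 99.9%, 94.8% and 24.8% of its UMIs. Agr2 was at 44.0 and 40.8 against 383 and 705 CPM in nondividing cells (-5.95 ± 0.85 SE, edgeR adjusted p 0.0480). Its edgeR adjusted p was 0.503 without the highest doublet scores, at an interaction of -7.45. With at least 3 of the division genes it was 0.293, at -5.82. In each mouse 1 dividing cell held 86.2%, 99.6%, 94.2% and 13.7% of the Agr2 UMIs. Acta1, the actin of skeletal muscle, was at 14.0 and 4.53 against 5.72 and 0.182 CPM in dividing cells and at 14.0 and 3.05 against 88.6 and 10.9 CPM in nondividing ones (-4.29 ± 0.62 SE, edgeR adjusted p 0.0480), from 26, 2, 14 and 1 UMIs. It did not pass in 7 of 12 alternatives that kept all mice, where its edgeR adjusted p ran from 0.0588 without shared barcodes to 0.702 with cells thinned. In these 7 the interaction stayed about as large, from -5.28 with cells thinned to -3.94 with a mitochondrial limit of 5%.

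Genes of lowest p after these are values that did not pass in the main edgeR fit. Klk1, a kallikrein protease, came next among genes with a lower change (-4.16 ± 0.68 SE, edgeR adjusted p 0.106). It passed in 6 of 12 alternatives that kept all mice, among them DESeq2 (adjusted p 0.0128) and a mitochondrial limit of 5% (edgeR adjusted p 2.0e-05). Of the genes named next, Igkc passed in 3 such alternatives, Rgcc in 2 and Hist1h2ap, Mt2 and Rgs13 in 1 each. On the other side stood Rgcc (4.16 ± 0.82 SE, edgeR adjusted p 0.324), Hist1h2ap, Igkc, Mt2 and Rgs13, whose interaction of 9.63 was -2.74 without the highest doublet scores. Igkc, an immunoglobulin chain and thus RNA of plasma and B cells, was at 8.05, 9.07, 89.5 and 12.9 CPM in dividing cells, with 62.1% of the EC-Foxc-DKO replicate 1 UMIs in 1 cell, and without the 6 cells that held rare immune genes its interaction was -0.0904 in place of 4.995.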

How the data were processed

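Distal jejuna of 4 mice gave 4 single-cell 3′ libraries of 10x Genomics. The authors deposited a matrix for each mouse with raw UMI counts of genes in cell barcodes, made with Cell Ranger on mm10 (GRCm38), and Cre is among the features. The submitters' processing notes name Cell Ranger 4.0.0, whereas the methods name another version. Mouse totals were 72046346, 15557181, 64781444 and 38750638 UMIs over 6623, 3623, 7347 and 5086 barcodes, of which 5876 in all held at most 10% mitochondrial UMIs. A joined table of the 4 libraries was not used, and 51 barcodes occurred in more than 1 library, 1 of them in a dividing cell.

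The members and gene lists were chosen with earlier results of these data known. Cells are not replicates, so UMIs were summed per mouse and compared with edgeR 4.0.16 (glmQLFit and glmQLFTest, filterByExpr, TMM, Benjamini-Hochberg over all genes tested, threshold 0.05) in R 4.3.3. DESeq2 1.42.0 was an alternative. The interaction used 8 sums, with mouse as a block. Nondividing epithelial cells held none of the division genes, and nondividing B cells served as the level of free RNA. The scripts were tested on simulated data. The genotype test recovered 2.1% of genes changed by a log2 of 1 and 66.7% of those changed by 2, with 8 false calls. The interaction test recovered 1.05% and 52.5%, with 4 false calls. The labels do not say whether same-numbered mice were paired, and P-values measure only the spread between these mice.

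Named genes were the rule genes, the most abundant genes of each list, the genes of lowest p of each test, the 10 most abundant genes and the crypt genes the study names. Pcna belongs to these, whereas Mcm3, Dtl, Cdc6, Cenpf, Cenpe, Hmmr, Hist1h1b, Cdkn1b, Gtse1, Cdc45, Blm, Duox2, Anxa1, Fer1l6, Oasl2, Defa24 and Lyz1 were chosen after their values were seen. Coordinates are those of GENCODE vM21, and promoter sequences those of RefSeq. Scrublet marked 13 of 5876 cells (0.221%) by its automatic threshold, so doublets were kept, and the 305 cells with the highest scores were left out as an alternative. Depth sets the precision: 3 UMIs equal 1.61, 6.80, 1.23 and 0.545 CPM in the 4 mice.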

Additional observations from a re-analysis of the deposited data

Results flagged for a closer look

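Retnlb, Spink4, Agr2 and Acta1 stood out because their difference between genotypes in dividing cells was not the same as in nondividing epithelial cells of the same mice, by the interaction test. The log2 difference of the changes was -9.31 for Retnlb, -5.51 for Spink4, -5.95 for Agr2 and -4.29 for Acta1. With 1 mouse left out it ran from -9.64 to -8.89 for Retnlb and from -5.87 to -5.05 for Spink4. For Agr2 it was -7.52 without EC-Foxc-DKO replicate 2 and -4.56 without EC-Foxc-DKO replicate 1. For Acta1 it was -3.93 and -5.92 without these mice. Of 12 alternatives that kept all mice, Retnlb did not pass in 1, Spink4 in 2, Agr2 in 3 and Acta1 in 7. For Retnlb, Spink4 and Agr2 these include leaving out the goblet-bearing cells of the dividing class. Over the 12 alternatives the interaction ran from -10.1 to -0.601 for Retnlb, from -7.37 to -1.69 for Spink4 and from -7.45 to -2.86 for Agr2. In each Control mouse most dividing-cell UMIs of these genes lay in 1 goblet-bearing cell, so the calls rest on few cells. Because those cells were chosen by their goblet genes, leaving them out is not a separate test.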

How the results depend on the processing

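In the comparison of genotypes no gene passed in 11 of 14 alternatives that kept all mice, and 113 genes passed with no filter on low counts, 5 with DESeq2 and 2 with the replicate block. Leaving out 1 mouse gave 16 to 45 genes. The labels give both groups replicate numbers and do not say whether same-numbered mice were paired. Same-numbered mice deviated with a correlation of -0.184 over 9282 genes. With 2 mice a group this is a single value and cannot decide whether they were paired. The crossed pairing, added after seeing the data, gave 0 calls. The interaction gave 2 genes with at least 3 of the division genes, 7 with at least 5, 31 with a mitochondrial limit of 5%, 1 without the highest doublet scores, 0 without the goblet-bearing cells, 7 with cells thinned, 61 with no filter and 9 with DESeq2, and 20, 73, 36 and 55 without Control replicates 1 and 2 and EC-Foxc-DKO replicates 1 and 2. Fits with 1 mouse left in a group assume that it varies like the other group.

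Without the goblet-bearing cells, the log2 fold change of Zg16 was 0.15 and that of Spink4 was 1.26, both opposite to the main direction. These cells were chosen by goblet genes and left out of the dividing class only, in both groups. The main fold changes of Zg16 and Spink4 thus rested on these few cells. The part of the choice by goblet genes in this loss was not tested. In the interaction, Igkc had -0.0904 without cells holding rare immune genes, and that of Rgs13 was -2.74 without the highest doublet scores. The cause of the reversals of Igkc and Rgs13 was not tested.

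In the 9 choices of cells tried, thinned or not, the groups did not overlap in median G2/M share, EC-Foxc-DKO being lower. The difference of means ran from -0.177 to -0.152 before thinning, from -0.227 with a mitochondrial limit of 5% to -0.107 without the highest doublet scores after thinning, and from -0.189 to -0.142 before thinning with 1 mouse left out. The difference in the share of dividing cells was 4.21 percentage points, 1.20 with each cell thinned to 5000 UMIs before the rule, 17.5 with a mitochondrial limit of 5%, which left 2 cells in Control replicate 2, and with 1 mouse left out it ran from -1.81, when that was EC-Foxc-DKO replicate 2, to 10.2, when it was EC-Foxc-DKO replicate 1. In percentage points of lineage classes, the enterocyte difference of -3.10 became 2.80 at a mitochondrial limit of 20%, 15.8 at 5% and 2.77 with 3 genes of a list, and ran from -8.10 without Control replicate 2 to 1.90 without Control replicate 1; the goblet difference of -2.25 became 0.200 with 3 division genes, -22.8 at 5% and 2.62 without thinning, and ran from -3.83 without EC-Foxc-DKO replicate 2 to -0.674 without EC-Foxc-DKO replicate 1; the Paneth difference of -5.66 became -23.8 at 5% and -0.575 without thinning, and ran from -8.39 without Control replicate 1 to -2.93 without Control replicate 2; and the tuft difference of 2.24 became 0 at 5% and without the highest doublet scores, 1.22 without cells holding rare immune genes, and 1.61 to 2.86 with 1 mouse left out. Leaving out cells with 3 or more immune genes left 8 dividing cells and could not be fitted. With 34 Control cells in all, depth limits what can be seen of rare lineages.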
